A study of Mus musculus with 6 samples.

Results

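The Krüppel-like factor (Klf) genes described here are the 10 named members *Klf2*, *Klf3*, *Klf4*, *Klf5*, *Klf6*, *Klf7*, *Klf9*, *Klf10*, *Klf13* and *Klf15*. They were taken by symbol from a table of 17428 mouse genes in which 16 Klf symbols are listed, and all 10 passed the filter on low values together with 13893 genes in total. The table holds RNAseq of EpH-4 (EpH4), a non-tumour mouse mammary epithelial line, in 3 states with 2 libraries each. E cells were kept in normal medium with serum and insulin and never received TGFβ1, M cells received TGFβ1 for 7 days, and RE (reverted epithelial) cells had the same 7 days followed by another 4 days in normal medium. The comparisons ask how the family stands before, during and after the exposure that drives an epithelial-mesenchymal transition (EMT). All states come from 1 cell line without genetic change, and RNA was taken from whole cultures, so that fewer cells expressing a gene and less RNA per cell cannot be told apart.

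Klf proteins are transcription factors that bind GC-rich and CACCC DNA through zinc fingers at their carboxy-terminal end, while their other parts differ and decide which cofactors they recruit. *Klf2*, *Klf4*, *Klf5*, *Klf6* and *Klf7* are usually grouped as activators, *Klf3* as a repressor that works through the CtBP proteins, and *Klf9*, *Klf10* and *Klf13* as factors that recruit the Sin3A corepressor. In epithelia the best known members are *Klf4*, which is linked to differentiation and barrier formation and is also a reprogramming factor, and *Klf5*, which is linked to proliferating basal and crypt cells.

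The deposited numbers behave as sequenced bases summed per gene, so each value is given as normalized coverage in ppm of the bases in its library after scaling, and libraries held between 35782513 and 47928557 reads' worth of 50 bases. Changes are log2 fold changes from limma on log2(ppm + 0.1), a scale that understates the change of low genes, with p-values adjusted over all genes tested. A gene was called where its level changed by more than 1 on the log2 scale, up or down, and its adjusted p was below 0.01. With 2 libraries per state, error is the SD over 2 libraries, and the E libraries differed more from each other than the rest did (SD of the log2 difference across genes 0.558, against 0.318 in M and 0.309 in RE). Of the epithelial markers, *Cdh1*, *Krt8*, *Krt18*, *Krt14* and *Cldn4* were well covered in every library and *Krt5* was at 0.478 ppm or less. Summed epithelial markers ran from 1520 to 1910 ppm in E, 1910 to 2020 in M and 1070 to 1130 in RE. All 3 adipocyte markers and 3 of 4 blood markers were at 3 reads' worth or less in each state. The other blood marker, *Cd68*, was covered in every library, at 5.17 to 9.18 ppm. The 4 endothelial markers summed to at most 0.56 ppm in E and RE and to 2.71 and 2.73 ppm in M, where *Cdh5*, listed at 0 in both E libraries, was at 2.33 and 2.07 ppm. The part of these shifts in the Klf values was not tested.

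In E vs. M, 3 of the 10 genes were called, where 17.0% of all genes tested were called, 8.58% as higher and 8.39% as lower in M. *Klf4* and *Klf15* fell with TGFβ1 and *Klf6* rose, a split of 1 higher and 2 lower that became 0 higher and 4 lower (*Klf3*, *Klf4*, *Klf5* and *Klf15*) both with library totals and with correction for GC content and length. From M to RE, 4 of 10 were called, all of them higher in the RE cells (*Klf3*, *Klf4*, *Klf5* and *Klf15*), where 12.9% of all genes were called, 8.08% in that direction and 4.79% in the other. Between E and RE, limma called 0 of the 10, with 5 at an unadjusted p below 0.05, where 9.37% of all genes were called, 6.2% as higher and 3.17% as lower in RE. Relaxing the fold threshold to 1.5 gave 4, 4 and 1 of the 10 in the 3 comparisons, against 23.8%, 16.5% and 13.0% of all genes, and relaxing the adjusted p to 0.05 also gave 4, 4 and 1, against 21.4%, 16.7% and 13.6%. The median log2 fold change of the 10 was −0.26, 0.78 and 0.41 in these comparisons, and that of all genes tested was 0.00, −0.02 and 0.01. In E vs. RE, 9 of the 10 values were above 0. Each state enters 2 of the comparisons, so they are not independent of one another.

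**Figure D1:**
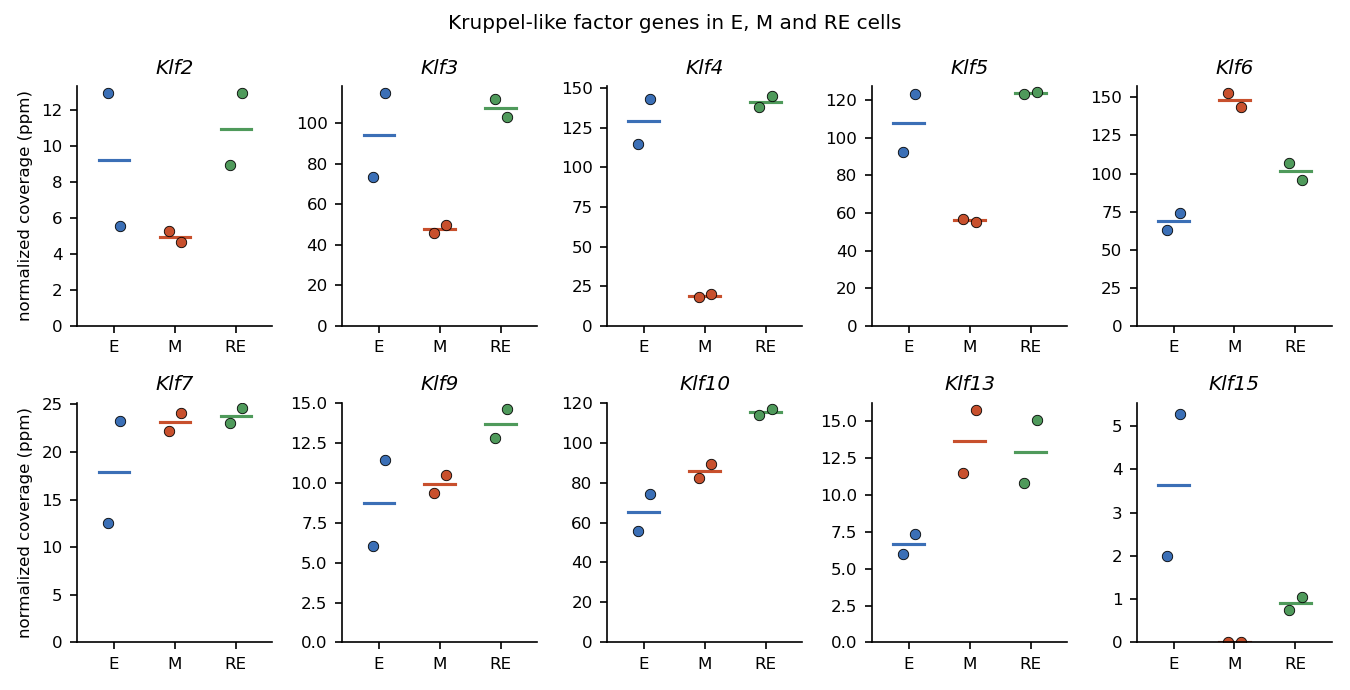
Normalized coverage in ppm (y axis, linear from 0, own scale per gene) of the 10 Klf genes in E, M and RE cells, where each point is 1 library and each line the mean of 2. *Klf4* lies at 18.1 and 20 ppm in the M cells and at 115 ppm or more in the other libraries, while *Klf6* is highest in the M cells and *Klf10* in the RE cells.

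Upstream sequences are shown for *Klf3*, *Klf4*, *Klf15* and *Klf6*, the called genes with an entry in the RefSeq promoter table (GRCm38.p6), as the first 3 were low in the M cells and the last was high there. The table matched 8 of the 10 genes. *Klf5* and *Klf10* are named only. Each run is the 250 bases before the annotated start, read 5′ to 3′ on the gene's strand, and capitals mark GC boxes (GGGCGG or its reverse complement CCGCCC) and CACCC boxes (CACCC or GGGTG), which may overlap. The regions are chr5:64803271-64803520 on the plus strand for *Klf3*, chr4:55532476-55532725 on the minus strand for *Klf4*, chr6:90462326-90462575 on the plus strand for *Klf15* and chr13:5861239-5861488 on the plus strand for *Klf6*.
Klf3: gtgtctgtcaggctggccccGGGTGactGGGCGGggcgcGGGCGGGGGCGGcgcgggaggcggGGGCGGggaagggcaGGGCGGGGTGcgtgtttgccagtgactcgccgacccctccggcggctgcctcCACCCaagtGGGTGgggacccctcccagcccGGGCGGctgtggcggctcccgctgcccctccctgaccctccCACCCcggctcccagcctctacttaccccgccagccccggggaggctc
Klf4: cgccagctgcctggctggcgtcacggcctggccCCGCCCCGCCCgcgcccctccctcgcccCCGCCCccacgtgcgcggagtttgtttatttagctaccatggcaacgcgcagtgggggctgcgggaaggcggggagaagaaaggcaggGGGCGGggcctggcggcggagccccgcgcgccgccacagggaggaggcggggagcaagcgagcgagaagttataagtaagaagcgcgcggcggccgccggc
Klf15: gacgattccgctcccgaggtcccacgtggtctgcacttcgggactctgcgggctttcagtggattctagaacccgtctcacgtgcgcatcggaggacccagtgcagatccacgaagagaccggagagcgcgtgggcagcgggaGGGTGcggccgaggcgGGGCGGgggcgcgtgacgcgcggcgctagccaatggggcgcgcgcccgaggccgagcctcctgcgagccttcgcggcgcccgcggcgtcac
Klf6: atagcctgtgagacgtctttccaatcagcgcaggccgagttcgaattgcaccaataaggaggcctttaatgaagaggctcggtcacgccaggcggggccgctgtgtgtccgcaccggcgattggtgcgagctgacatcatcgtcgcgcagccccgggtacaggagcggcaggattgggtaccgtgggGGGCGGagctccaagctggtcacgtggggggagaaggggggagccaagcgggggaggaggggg

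The Klf upstream regions were rich in G and C. Their GC content was 78.4% for *Klf3*, 74.0% for *Klf4*, 72.0% for *Klf15* and 64.8% for *Klf6*, where the median of 27025 promoters was 52.0%. The *Klf3* run held 6 GC boxes and 5 CACCC boxes, *Klf4* held 4 and 0, *Klf15* 1 of each, and *Klf6* 1 and 0. A GC box was present in 32.9% and a CACCC box in 51.3% of all promoters of this length, and both are more frequent where GC content is high. The E-box CACGTG occurred 2 times for *Klf15*, 1 time for *Klf4* and 1 time for *Klf6*, and in 6.05% of all promoters. A cyclic AMP response element (TGACGTCA), paired SMAD boxes (GTCTAGAC), TATAAA and the CArG box (by its name), also searched on both strands, gave no match in the 8 windows and were present in 1.62%, 0.174%, 13.0% and 1.4% of all promoters. These matches describe letters in a window and not binding.

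Among the activators, *Klf4* had the largest change in coverage that did not involve a value of 0. It was at 115 and 143 ppm in the 2 E libraries, 18.1 and 20 ppm in the M libraries and 138 and 145 ppm in the RE libraries. Both M libraries lay far below all others, and the ranges of E and RE overlapped. *Klf4* was 6.69-fold lower in M than in E (log2 fold change −2.74, SE 0.15, limma adjusted p = 2.17e-05) and 7.41-fold higher in RE than in M (2.89, SE 0.15, adjusted p = 1.96e-05). The RE cells did not differ detectably from the E cells (0.15, 95% interval −0.20 to 0.50, limma adjusted p = 0.485). Its promoter, printed above, had 4 GC boxes and no CACCC box.

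*Klf5* followed *Klf4* in direction with a smaller amplitude. Its coverage was 92.3 and 123 ppm in the E cells, 56.6 and 55.4 ppm in the M cells and 123 and 124 ppm in the RE cells. The M libraries were the lowest, and the second E library was level with the RE libraries. The rise from M to RE was called (log2 fold change 1.14, SE 0.16, limma adjusted p = 0.00158). The E vs. M difference had an adjusted p under the threshold but a fold just under it (−0.92, SE 0.16, limma adjusted p = 0.00325), and it was called when libraries were scaled by their totals (−1.22) and with values corrected for GC content and length (−1.17). With only E and M fitted, the E vs. M difference of *Klf5* no longer passed the p threshold (limma adjusted p = 0.0137). Over the fits without 1 library it ran from −1.13 to −0.74. The E vs. RE value of *Klf5* was 0.22 (95% interval −0.15 to 0.58, limma adjusted p = 0.332).

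*Klf6*, a broadly expressed activator often described as an early response gene and tumour suppressor, was the called gene of opposite direction. It was at 63.2 and 73.9 ppm in the E cells, 153 and 144 ppm in the M cells and 107 and 95.8 ppm in the RE cells. The libraries of the 3 states did not overlap, with RE between E and M. The rise in M was 2.17-fold (log2 fold change 1.12, SE 0.14, limma adjusted p = 0.000777). It was under the fold threshold with library totals (0.81, when the median of all genes stood at −0.29) and with correction for GC content and length (0.96), and without M replicate 1 or M replicate 2 it was over the fold but not the p threshold (1.07, adjusted p = 0.0165, and 1.16, limma adjusted p = 0.0126). The values of −0.55 in M vs. RE (limma adjusted p = 0.0207) and 0.56 in E vs. RE (limma adjusted p = 0.0212) were not called.

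*Klf2* and *Klf7* were not called in any comparison. *Klf2*, best known from endothelial cells and resting T cells, was at 12.9 and 5.53 ppm in E, 5.24 and 4.68 ppm in M and 8.95 and 12.9 ppm in RE. The E libraries disagreed, one at the level of the higher RE library and the other close to the M libraries. The difference of 1.10 in M vs. RE (SE 0.38, limma adjusted p = 0.0608) was called when only M and RE were fitted (limma adjusted p = 0.000131) and with array weights (0.000398). In these fits 16.7% and 17.4% of all genes were called, against 12.9% in the reported fit. Over the fits without 1 library the difference ran from 0.84 to 1.36. The E vs. M value of −0.76 (limma adjusted p = 0.143) became −1.39 and was called without E replicate 2, and the E vs. RE value of 0.34 became −0.26. *Klf7*, the closest relative of *Klf6* and known from neuronal development, was at 12.5 and 23.3 ppm in E, 22.2 and 24.1 ppm in M and 23.0 and 24.6 ppm in RE. Only the first E library stood apart from the other libraries, and the log2 fold changes were 0.43 (E vs. M), 0.04 (M vs. RE) and 0.47 (E vs. RE), none of them called (limma adjusted p = 0.229, 0.929 and 0.216).

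The CtBP-linked repressor *Klf3* was at 73.3 and 115 ppm in the E cells, 46.1 and 50 ppm in the M cells and 112 and 103 ppm in the RE cells. The M libraries were the lowest, and the E libraries lay on either side of both RE libraries. The rise from M to RE was called (2.24-fold, log2 fold change 1.16, SE 0.21, limma adjusted p = 0.00521). The E vs. M value of −0.93 (SE 0.21, limma adjusted p = 0.0102) was just outside both thresholds and was called with library totals (−1.24), with correction for GC content and length (−1.22) and without E replicate 1 (−1.26). With only E and M fitted, the E vs. M value of *Klf3* was further from the p threshold (limma adjusted p = 0.0283). Over the fits without 1 library it ran from −1.26 to −0.63. The E vs. RE value of *Klf3* was 0.23 (limma adjusted p = 0.438).

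The Sin3A-linked members did not follow *Klf4*. *Klf10*, first described as a TGFβ-inducible early gene, was at 55.9 and 74.3 ppm in E, 82.1 and 89.2 ppm in M and 114 and 117 ppm in RE. The 3 states did not overlap, with the RE libraries highest. Its log2 fold changes were 0.41 in E vs. M (limma adjusted p = 0.0783), 0.44 in M vs. RE (adjusted p = 0.0784) and 0.84 in E vs. RE (95% interval 0.47 to 1.22, adjusted p = 0.00829). The last passed the p threshold at a 1.80-fold difference and was called at a fold change of 1.5, where 13.0% of all genes were called, and without E replicate 2 (1.05).

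*Klf13*, known from T cell and heart development, was at 6.03 and 7.33 ppm in E, 11.5 and 15.8 ppm in M and 10.8 and 15.1 ppm in RE. Both E libraries were below all others, and M and RE overlapped. The E vs. M value was 1.01 (SE 0.24, limma adjusted p = 0.0129) and the E vs. RE value 0.93 (adjusted p = 0.0244), neither of them called. *Klf9*, a gene induced by glucocorticoids and thyroid hormone, was at 6.07 and 11.4 ppm in E, 9.36 and 10.5 ppm in M and 12.8 and 14.6 ppm in RE. The E libraries spanned the M libraries and the RE libraries were the highest, with an E vs. RE value of 0.71 (SE 0.28, limma adjusted p = 0.0964). Without E replicate 2, limma called *Klf9* (1.17), *Klf10* (1.05) and *Klf13* (1.07) in E vs. RE, a fit in which the share called over all genes was 17.1% in place of 9.37%. Without E replicate 1 their values were 0.26, 0.64 and 0.79, and limma called none of them.

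*Klf15*, a metabolic regulator of amino acid and glucose use that glucocorticoids induce, had the lowest coverage in the M cells. It was at 1.99 and 5.28 ppm in E (4293 and 10143 bases), was listed at 0 in both M libraries, and was at 0.753 and 1.06 ppm in RE (1778 and 2324 bases). The 3 states did not overlap. Against a floor of 3 reads' worth (150 bases) per library, its coverage was at least 50.2-fold lower in M than in E and at least 12.5-fold higher in RE than in M. From the lower E library alone the first bound is 27.5-fold, and from the higher alone 73-fold. These floors cover counting error only. Both differences were called (log2 fold change −5.07, limma adjusted p = 0.000179, and 3.31, adjusted p = 0.00158). The fitted size depends on the pseudocount: E vs. M ran from −7.03 to −2.11 and M vs. RE from 5.20 to 0.93 at pseudocounts of 0.025 and 1, the last not called. The RE cells stood at 0.905 ± 0.216 ppm against 3.63 ± 2.33 ppm in the E cells (SD, n = 2), a log2 difference of −1.75 that was not called (limma adjusted p = 0.0262) but was called at an adjusted p of 0.05, where 13.6% of all genes were called, and without E replicate 1 (−2.43). It was −1.07 without E replicate 2, and over the fits without 1 library its adjusted p by limma reached 0.18.

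**Figure D2:**
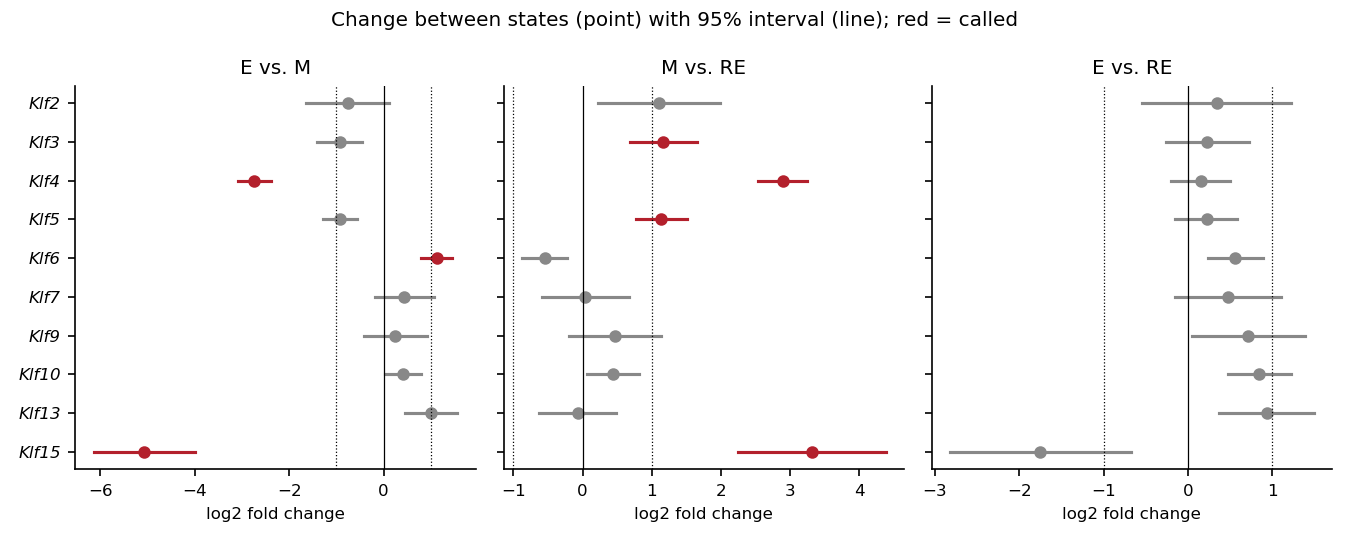
Log2 fold change (x axis) of the 10 Klf genes in E vs. M, M vs. RE and E vs. RE, positive where the second state is higher, as point with 95% interval from limma (line); red marks called genes and dotted lines a change of 1 either way. *Klf4* and *Klf15* cross to the left in E vs. M and to the right in M vs. RE, and no gene is red in E vs. RE.

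Levels of different genes were compared as coverage per kb of exon, with exon lengths from a newer mouse annotation than the authors' build. In the E cells *Klf4* was highest (42.5 ppm per kb), apart from *Klf5* (20.7), *Klf3* (17.5), *Klf10* (17.0) and *Klf6* (16.2), neighbours in this order whose libraries overlapped. In the M cells the order was *Klf6* (35.1), *Klf10* (22.4), *Klf5* (10.8), *Klf3* (8.92) and *Klf4* (6.29), each apart from the next. In the RE cells *Klf4* (46.8) was again first, followed by *Klf10* (30.2), *Klf6* (23.9), *Klf5* (23.8) and *Klf3* (20), of which *Klf6* and *Klf5* overlapped. The other 5 genes were at 5.91 ppm per kb or less in each state by their means.

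*Klf4* made up 33.9% of the summed coverage per kb of the 10 genes in E, 6.75% in M and 29.4% in RE, and *Klf6* made up 12.9%, 37.6% and 15.1%. The sum itself was 110 and 140 ppm per kb in the E libraries, 92.4 and 94.1 in the M libraries and 158 and 160 in the RE libraries. A ratio taken within a library does not depend on how libraries are scaled. The ratio of *Klf4* to *Klf6* per kb was 2.53 and 2.69 in E, 0.165 and 0.194 in M and 1.81 and 2.11 in RE. *Klf4* was thus above *Klf6* in all E and RE libraries and below it in both M libraries, with the RE ratios a little under those of E. This pair was chosen after its values were seen, so no test is given.

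**Figure D3:**
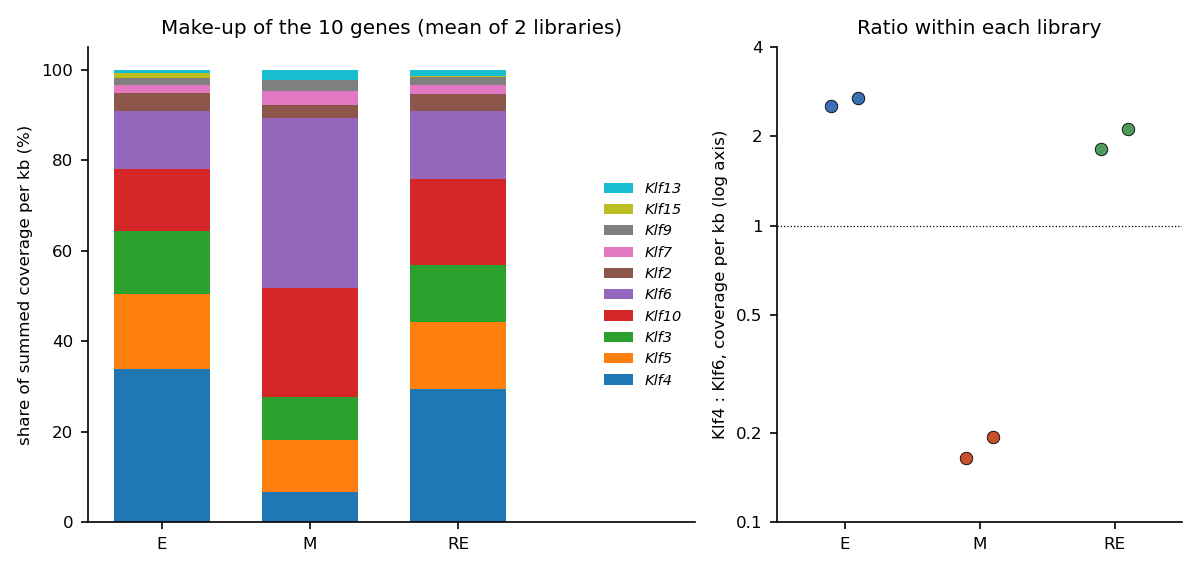
Left, share of the summed coverage per kb (y axis, %) held by each of the 10 Klf genes in E, M and RE cells, from the mean of 2 libraries. Right, ratio of *Klf4* to *Klf6* coverage per kb in each library (log axis, dotted line at 1). The *Klf4* share shrinks from 33.9% to 6.75% in M and is 29.4% in RE, and the ratio lies below 1 in the M libraries alone.

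For the 5 called genes, the closest profiles over the 6 libraries were found by Euclidean distance of mean-centred log2 values among all genes tested, as a description of likeness that includes the differences between replicates. *Klf4* lay nearest to *Cdh26* (distance 0.245), a cadherin, and *Scnn1a* (0.267), a subunit of the epithelial sodium channel. *Scnn1a* coverage was 19.1 and 22.9 ppm in E, 2.6 and 3.48 in M and 19.8 and 21.5 in RE. *Klf3* lay nearest to *Plekha7* (0.0995), a protein of the zonula adherens, and *Med13l* (0.134), a Mediator subunit. *Klf5* lay nearest to *Pcdh1* (0.165), a protocadherin, and *Tead4* (0.197), a TEAD transcription factor. *Klf6* lay nearest to *Sp110* (0.0385) and *Atp8b2* (0.143). *Klf15* had no close neighbour, with *Myh14* at 1.18 and *Ivd* at 1.21.

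Other Klf genes were set beside these members. Of 7 on the list (*Klf1*, *Klf8*, *Klf11*, *Klf12*, *Klf14*, *Klf16* and *Klf17*), 6 were in the table and 5 passed the filter. *Klf8*, a CtBP-linked relative of *Klf3*, moved the other way from it. It was at 0.631 and 1.32 ppm in E, 6.02 and 6.61 ppm in M and 1.32 and 1.56 ppm in RE, so that both M libraries stood above all others. It rose in M (log2 fold change 2.65, SE 0.33, limma adjusted p = 0.000792) and fell in RE against M (−2.06, SE 0.33, adjusted p = 0.00313), a call lost in 4 of 19 alternatives. *Klf11*, a relative of *Klf10* also described as TGFβ-inducible, was at 8.09 and 14.1 ppm in E, 27.3 and 30.3 ppm in M and 14.8 and 15.9 ppm in RE. Its rise in M was called (1.42, limma adjusted p = 0.00369), a call lost in 5 of 19 alternatives, while its M vs. RE value of −0.90 (adjusted p = 0.0306) was not. Between E and RE, limma called 0 of the 5, with 0 at an unadjusted p below 0.05, where 9.37% of all genes were called.

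The related Sp factors, which bind similar GC-rich sites, had 6 genes tested. In E vs. M limma called 0 of 6, with 2 at an unadjusted p below 0.05, where 17.0% of all genes were called. *Sp8* fell in RE against M (−1.69, limma adjusted p = 0.00224) and against E (−1.90, adjusted p = 0.00217), and *Sp6* fell against E (−1.20, adjusted p = 0.00579). Most of the list went the other way in E vs. RE, where 4 of the 6 values were above 0 (median 0.69). There, 5 had an unadjusted p below 0.05. Among them, *Sp4* was at 1.57 (limma adjusted p = 0.0104) and *Sp3* at 0.75 (adjusted p = 0.00491), neither of them called. The call of *Sp6* was lost in 7 of 19 alternatives and that of *Sp8* in E vs. RE in 3 of 19. Of 12 cofactors and ubiquitin ligases that act on Klf proteins, among them *Ctbp1*, *Ctbp2*, *Sin3a* and *Wwp1*, limma called 0 in each comparison. Of all genes, 17.0%, 12.9% and 9.37% were called in the order E vs. M, M vs. RE, E vs. RE. In the same order, 7, 5 and 5 of the 12 had an unadjusted p below 0.05. Some missed only the fold threshold. *Fbxw7* (0.68, limma adjusted p = 0.00406) and *Wwp1* (0.60, adjusted p = 0.00729) were higher in M than in E. *Ctbp2* (−0.71, adjusted p = 0.00499), *Fbxw7* (−0.72, adjusted p = 0.00408) and *Sin3b* (−0.73, adjusted p = 0.00395) were lower in RE than in M. *Kat2b* was higher in RE than in E (0.87, adjusted p = 0.00617). All of these passed at a fold change of 1.5, where 23.8%, 16.5% and 13.0% of all genes were called.

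The MEK5-ERK5-MEF2 axis is known to drive *Klf2* and *Klf4*. Of its 5 genes (*Map2k5*, *Mapk7*, *Mef2a*, *Mef2c* and *Mef2d*), limma called 0 in E vs. M, with 2 at an unadjusted p below 0.05, where 17.0% of all genes were called. *Mef2a* was at 25.1 and 43.6 ppm in E, 63.6 and 61.3 ppm in M and 171 and 131 ppm in RE, and *Mef2c* at 1.96 and 2.62, 1.83 and 1.79, and 8.34 and 6.24 ppm. Both were highest in the RE cells, above M (1.25, limma adjusted p = 0.00906, and 1.94, adjusted p = 0.000994) and above E (2.17, adjusted p = 0.00138, and 1.63, adjusted p = 0.00332). The call of *Mef2a* in M vs. RE was lost in 8 of 19 alternatives, median-of-ratios size factors and the fits without an M or RE library among them, and that of *Mef2c* in E vs. RE in 5 of 19. From M to RE, *Klf4* also rose (2.89, called) and *Klf2* was at 1.10 (not called). *Klf2* and *Klf4* did not differ detectably between E and RE. A link between this axis and the 2 genes was not tested.

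Of 20 genes described elsewhere as regulated by Klf factors, 18 were tested. In E vs. M, 6 were higher and 1 was lower in the M cells (median −0.09), and 11 were not called. Of all genes, 8.58% were called as higher and 8.39% as lower there. These shares were 8.08% and 4.79% in M vs. RE, and 6.2% and 3.17% in E vs. RE. The largest change was that of *Acta2*, smooth muscle actin (7.24, limma adjusted p = 1.38e-05), while *Fgfbp1*, linked to *Klf5*, fell (−2.87, adjusted p = 0.000502) and rose again from M to RE (2.45, adjusted p = 0.00129). *Plau*, the urokinase gene linked to *Klf6*, rose in M (1.98, limma adjusted p = 0.000107) and fell in RE against M (−2.90, adjusted p = 2.43e-05). *Cdh1*, linked to *Klf4*, was not called in any comparison (−0.15, −0.02 and −0.17). In M vs. RE, 2 were higher (*Fgfbp1* and *S1pr1*) and 4 lower in the RE cells (*Acta2*, *Plau*, *Pdgfa* and *Smad7*). Between E and RE, 2 were higher (*Acta2* and *S1pr1*) and 4 lower (*Nos3*, *Slc2a4*, *Ccnd1* and *Cdkn1a*). *S1pr1*, linked to *Klf2* and low in all libraries (means of 0.11 ppm in E and 1.09 ppm in RE), was higher in RE than in E by 2.49 (limma adjusted p = 0.00402). It held 250 and 200 bases in E, 150 and 0 in M, and 2287 and 2658 in RE. *S1pr1* thus passed the filter on low values through the RE libraries alone. Both of its calls depend on that selection, so no contrast is drawn with *Klf2*, which was not called. With library totals, 4 of these genes in place of 6 were higher in E vs. M.

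**Figure D4:**
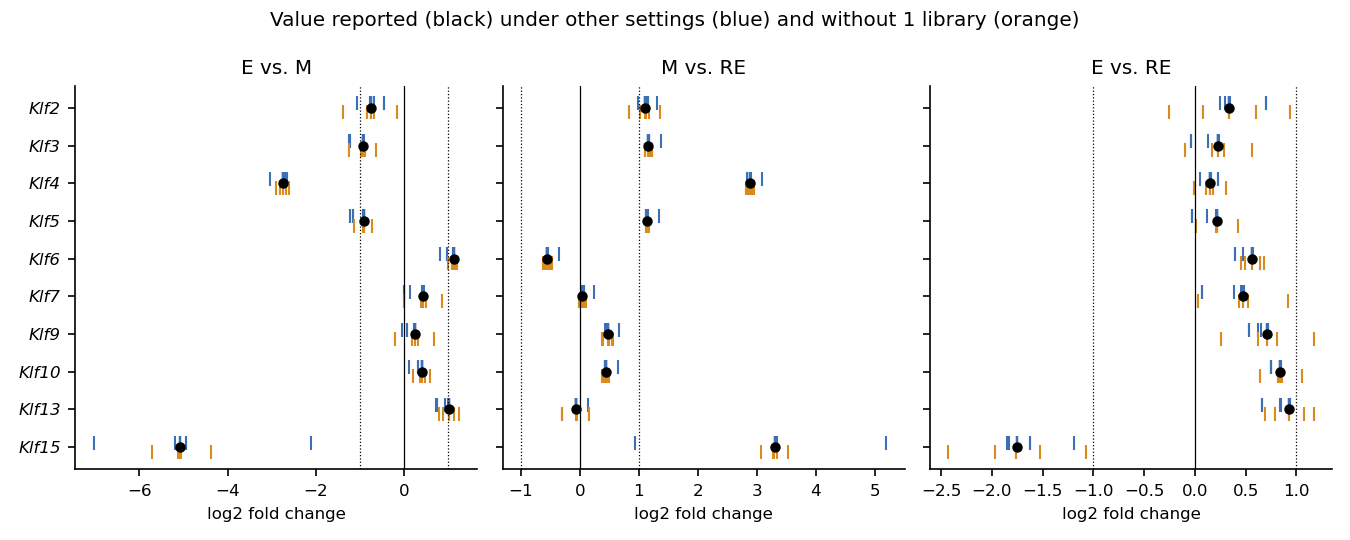
Log2 fold change (x axis) of each Klf gene in the 3 comparisons as reported (black), under each other setting of the processing (blue) and with 1 library left out (orange), with dotted lines at a change of 1 either way. *Klf4* stays between −3.04 and −2.61 in E vs. M and between 2.82 and 3.09 in M vs. RE, while *Klf15* spreads widest, from −7.03 to −2.11 in E vs. M.

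Support for the M vs. RE calls was uneven. *Klf4* was called in every fit with 1 library left out (log2 fold change 2.82 to 2.96, adjusted p at most 0.000983 by limma). *Klf3*, *Klf5* and *Klf15* were no longer called without M replicate 1, M replicate 2, RE replicate 1 or RE replicate 2, where their adjusted p by limma ran from 0.0145 to 0.0601 and the count fell from 4 to 1. The calls over all genes fell as well in these fits, from 12.9% to 5.24%, 5.62%, 4.96% and 5.96%. Such fits leave 1 library in the arm and assume that it varies like the other states. The log2 fold changes stayed between 1.10 and 1.23 for *Klf3*, 1.13 and 1.17 for *Klf5* and 3.08 and 3.53 for *Klf15*. In E vs. M, 5 genes were called without E replicate 1 (*Klf3* and *Klf5* added) or without E replicate 2 (*Klf2* and *Klf13* added), and 2 without M replicate 1 or M replicate 2 (*Klf4* and *Klf15*). Over all genes 18.1% and 24.5% were called without E replicate 1 and 2, and 6.9% and 7.34% without M replicate 1 and 2.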

How the data were processed

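RNA from 2 biological replicates each of E, M and RE cells was sequenced. Per the paper's methods, the authors mapped unique reads to NCBI-m37 with Bowtie and TopHat2 (no versions given). The authors deposited 1 unnormalized table named as counts, whose values behave as coverage (signal). Of its values from 1 to 400, between 44.8% and 48.4% per library can be divided by 50 without remainder. The counting step and its annotation are not given in the sources used here, so overlapping genes may share coverage, and the authors' edgeR test, which needs counts, was not applied. Columns were matched to libraries by name.

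Coverage was scaled by unweighted TMM (trims of 30% and 5%), factors 0.871 to 1.119. The 13893 genes reaching 500 bases in 2 or more libraries were fitted in limma 3.58.1 (R 4.3.3) by group over 6 libraries, with a trend on mean level and Benjamini-Hochberg adjustment. The fit was tested on simulated data. Exon length and GC content matched 93.4% of the genes tested by symbol. Promoter letters are from RefSeq (GRCm38.p6), and no coordinates of the authors' build are used.

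The members and gene lists were chosen with earlier results of these data known. Named genes are the 10 members, up to 3 called genes of each list with the largest change (other called genes where 5 or fewer), and the 2 nearest profiles. With 2 libraries per state, p-values rest only on the spread between these libraries, pooled over the 3 states. That spread was also drawn towards a trend over all genes tested. Alternatives covered thresholds, scaling, filter, pseudocount, groups fitted, replicate block, array weights, GC content and length, and leaving out each library. A result on the list of genes that respond to TGFβ is not reported here.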

Additional observations from a re-analysis of the deposited data

How the results depend on the processing

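Of 567 values of single Klf genes under alternatives, 511 kept direction and call, 23 gained a call, 18 lost one and 15 changed sign. The number called was 3 in E vs. M (2 to 5 without 1 library), 4 in M vs. RE (1 to 5) and 0 in E vs. RE (0 to 3). The share of all genes called moved in the same fits, from 6.9% to 24.5%, 4.96% to 17.0% and 0.32% to 17.1%. In E vs. RE it was 1 at a fold change of 1.5 (*Klf10*) and 1 at an adjusted p of 0.05 (*Klf15*). A fit with a replicate block gave 4, 4 and 0, the block adding *Klf13* in E vs. M (1.01; limma adjusted p = 0.00399). Deviations of same-numbered libraries from their group means correlated at 0.267 (E and M), 0.058 (E and RE) and 0.116 (M and RE), not all above 0.1, so the numbers were not taken as pairs. With library totals the sign changed for *Klf9* in E vs. M (−0.05) and *Klf13* in M vs. RE (0.13). With the GC and length trend removed, with and without the block, it changed in E vs. RE for *Klf3* (−0.04 in both) and *Klf5* (−0.03 in both). Without 1 library, values spanned 0 for *Klf7* (−0.01 to 0.86) and *Klf9* (−0.21 to 0.67) in E vs. M, for *Klf7* (−0.02 to 0.10) and *Klf13* (−0.31 to 0.16) in M vs. RE, and for *Klf2* (−0.26 to 0.94), *Klf3* (−0.10 to 0.56) and *Klf4* (−0.01 to 0.31) in E vs. RE. None of the values that changed sign was called in the reported fit, and the cause was not tested. Changed thresholds, the replicate block alone and fits of the compared groups alone left the fold changes as reported. Part of the 567 values thus could not change sign. The filter in every library left *Klf15* untested. Scaling by totals put the all-gene median at −0.29 (E vs. M) and 0.18 (M vs. RE), and 30.5% and 73.8% of called genes were then higher, against 50.6% and 62.8%. The effect of depth was not tested.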

Other observations

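*Klf4*, *Klf6* and *Klf10* are often counted among the immediate early genes. Of 14 other such genes tested, 10 were lower and 0 higher in M than in E (median log2 fold change −1.38, all 14 values below 0), and 8 were higher and 0 lower in RE than in M (median 1.59, with 12 values above 0). Of all genes tested, 8.39% were called as lower in M than in E and 8.08% as higher in RE than in M. *Fos* was at 223 and 156 ppm in E, 14.4 and 12.3 ppm in M and 60.3 and 51.7 ppm in RE, and so was below E in RE (−1.74, limma adjusted p = 0.00124), where *Klf4* was not called. *Fosb* was also lower in RE than in E (−2.75, limma adjusted p = 0.000488). *Egr3* fell in M (−1.42, limma adjusted p = 0.00342) and rose in RE against M (2.42, adjusted p = 0.000355). Between E and RE, 1 gene was higher (*Egr2*) and 4 were lower (*Fos*, *Fosb*, *Atf3* and *Myc*), where 6.2% and 3.17% of all genes were. With library totals *Egr2* was not called there, and 12 were lower in E vs. M.

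Of 9 genes of the glucocorticoid response and the circadian clock, which share inputs with *Klf9* and *Klf15*, 3 were higher in M than in E (*Nr1d1*, *Nr1d2* and *Fkbp5*), and 5 were higher in RE than in E (*Per1*, *Per2*, *Tef*, *Nr1d1* and *Nr1d2*). The shares of all genes called as higher were 8.58% in M and 6.2% in RE against E. *Per2* rose by 2.08 (limma adjusted p = 0.0027) from E to RE. *Fkbp5* was at 33.7 and 44.1 ppm in E, 116 and 112 ppm in M and 40.9 and 45.1 ppm in RE. Of the 9 values in E vs. M, 8 were above 0. There, 6 genes were not called, *Tsc22d3* (−0.25) and *Sgk1* (0.27) among them. *Klf15* was listed at 0 in M, and a link between these genes and *Klf15* was not tested. In M vs. RE, *Per1* and *Per2* were higher and *Fkbp5* lower in RE. With library totals *Nr1d2* was not called.

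Among genes known to respond to TGFβ, *Tgfbi* rose in M by 3.29 on the log2 scale (limma adjusted p = 0.000241) and then fell by 3.74 in RE (limma adjusted p = 0.000153). *Skil*, *Pmepa1* and *Ltbp2* were also called as higher in M than in E and as lower in RE than in M, except that *Ltbp2* was not called in M vs. RE with library totals. *Id2* and *Id3* rose from M to RE. Between E and RE, *Id2*, *Id3* and *Ltbp2* were higher in RE, and *Klf10* and *Klf11* were not called.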
